A study of Homo sapiens with 6 samples.

Results

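The TLE genes encode the human Groucho corepressors, and GSX2 peaks were assigned to TLE1, TLE2, TLE3, TLE4, TLE5 and TLE6 wherever one of them was the nearest protein-coding gene to the strongest summit of the peak. Of 15743 regions bound by the tagged protein in at least 1 replicate, 38 had a TLE gene as the nearest one. These held 28 of 9859 peaks in replicate 1, 18 of 7471 in replicate 2 and 25 of 9122 in replicate 3. The peaks came from H9, an established human embryonic stem cell line, that had been directed to a progenitor state resembling the lateral ganglionic eminence, the embryonic source of striatal neurons. Its genotype is given as TRE3G 2xFLAGGSX2 WT, a doxycycline-responsive transgene whose wild-type GSX2 carries 2 FLAG tags. Differentiation used LDN193189 and SB431542, at first with XAV939, and then IWP2 with Activin A. All cells received doxycycline at 100 ng/mL from day 10 and were taken 12 hours later, at day 10.5, and the M2 antibody against FLAG was used to precipitate chromatin. There are 3 replicates of this 1 group, so no condition was compared with another. The 3 input libraries have no values here. The transgene is driven by an inducible promoter, so the peaks report the tagged protein and not endogenous GSX2, and the labels do not say whether the line is 1 clone. Without expression values, the labelled cell type was not checked against its markers.

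Groucho/TLE proteins do not bind DNA themselves. Transcription factors recruit them through short peptide motifs, among them the eh1 motif of many homeodomain repressors and the WRPW motif of HES proteins, which dock on the WD-repeat domain at the carboxyl end. TLE1 to TLE4 have this full domain structure and recruit histone deacetylases. TLE5, also called AES, lacks the WD repeats and can oppose the full-length proteins, and TLE6 is a divergent member best known from the maternal protein complex of the oocyte.

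Reference sequence at the starts of TLE4, TLE3 and TLE2 is shown because these are the members with a reproducible GSX2 region close to an annotated start. The windows run from 250 bases before to 50 bases after a start (RefSeq, GRCh38.p14), are written 5′ to 3′ on the strand of the gene, and carry the homeodomain core TAAT and its reverse complement ATTA in capitals.
TLE4, chr9:79571715-79572014, plus strand: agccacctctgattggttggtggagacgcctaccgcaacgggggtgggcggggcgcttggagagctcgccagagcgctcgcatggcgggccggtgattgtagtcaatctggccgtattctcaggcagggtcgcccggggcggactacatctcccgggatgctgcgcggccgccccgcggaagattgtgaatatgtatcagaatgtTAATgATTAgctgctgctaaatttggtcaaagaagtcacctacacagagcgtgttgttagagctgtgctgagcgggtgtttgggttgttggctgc
TLE3, chr15:70097868-70098167, minus strand: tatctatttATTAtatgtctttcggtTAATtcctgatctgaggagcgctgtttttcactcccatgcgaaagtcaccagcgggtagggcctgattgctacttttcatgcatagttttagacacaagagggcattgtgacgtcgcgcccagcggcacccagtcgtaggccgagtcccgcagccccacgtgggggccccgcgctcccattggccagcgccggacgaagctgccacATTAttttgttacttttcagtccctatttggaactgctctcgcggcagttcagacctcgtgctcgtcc
TLE2, chr19:3047586-3047885, minus strand: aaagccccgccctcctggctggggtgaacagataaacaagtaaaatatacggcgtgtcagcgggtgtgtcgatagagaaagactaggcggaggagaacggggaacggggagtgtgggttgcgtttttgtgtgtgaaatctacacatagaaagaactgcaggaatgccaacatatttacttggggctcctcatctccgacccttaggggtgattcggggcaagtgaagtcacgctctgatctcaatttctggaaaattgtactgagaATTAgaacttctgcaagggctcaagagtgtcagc
The TLE4 window held 2 cores a single base apart, TAATgATTA, starting 45 and 40 bases before the annotated start. Both lay in the 98 bases of the window that a peak of replicate 3 covered. The TLE3 window held 3 cores and the TLE2 window 1, and neither window overlapped a peak. None of the 3 windows overlapped a shared region. The nearest one lay 346 bp from the TLE4 window, 1022 bp from the TLE3 window and 110 bp from the TLE2 window. Searched on both strands, TAAT occurs in 42.7% of 22131 windows at the starts of protein-coding genes, so its presence sets none of these windows apart. The longer words TAATTA and TAATTG (with its complement CAATTA), found in 3.40% and 5.88% of windows, were in none of these 3. One window of TLE3, at its middle annotated start, held TAATTG. The sequence under the strongest regions was not analysed here.

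GSX2 regions recurred in all 3 replicates at 5 of the 6 genes, the same 5 that were nearest to any peak at all. TLE4 had 9 such shared regions, TLE1 had 2, and TLE2, TLE3 and TLE6 had 1 each. TLE5 had no peak in any list. Over all 19970 protein-coding genes, 33.1% were nearest to a region of any replicate, 12.5% to at least 1 shared region and 3.29% to at least 2. Of the 38 TLE regions, 14 were shared (36.8%), against 3523 of the 15705 other regions (22.4%, and 22.5% over all regions). Another 4 TLE regions were found in 2 replicates and 20 in 1, so that 47.4% had a peak in at least 2, near the 45.1% of all regions. The genes differ in the length of chromosome over which each is the nearest. TLE4 was the nearest protein-coding gene over 1704 kb, TLE1 over 1154 kb and TLE3 over 624 kb, against a median of 57.8 kb over all protein-coding genes. TLE2, TLE6 and TLE5, neighbours within 85.6 kb of chromosome 19, had 53.9, 35.2 and 28.4 kb. Per megabase of this stretch, TLE4 had 5.28 shared regions, TLE1 1.73 and TLE3 1.60, against 1.15 over all genes. TLE2 and TLE6, with 1 shared region each in a short stretch, had 18.6 and 28.4.

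**Figure D1:**
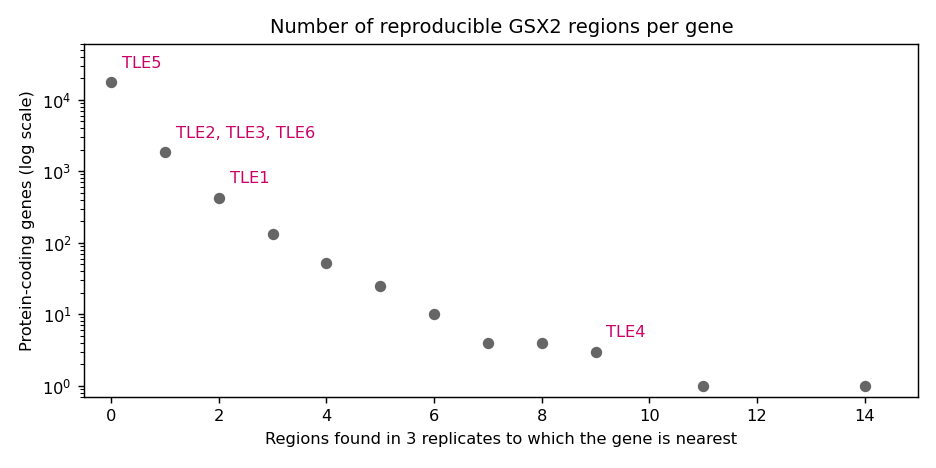
Protein-coding genes (vertical axis, log scale) by the number of regions found in 3 replicates to which they are nearest (horizontal axis), with the TLE genes named at their count. TLE4 stands at 9 regions, a count reached by 0.025% of genes, TLE1 at 2 and TLE5 at 0.

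TLE4 was among the protein-coding genes with the most shared regions. It had 9, a count that 3 genes shared and 2 exceeded, so 5 of 19970 genes (0.025%) had at least as many. The highest count was 14. Genes most like TLE4 by count and then by the strongest region were CADPS2 and DACH1 with 9 shared regions, and SOX2 and NR2F2 with 8. Their strongest regions averaged 13.9 ± 5.2-fold, 11.6 ± 4.5-fold, 29.0 ± 5.3-fold and 21.4 ± 4.0-fold in that order (SD, n = 3). TLE4 had the highest value of these, 36.7-fold. The 4 genes were the nearest over 572, 1515, 903 and 1745 kb in the same order, against 1704 kb for TLE4. CADPS2 thus reached the same count in a shorter stretch.

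The strongest TLE region lay inside TLE4, 88.6 kb from its start (chr9:79660237-79660945, hg38). Fold enrichment is the authors' signal value of each peak, taken here as a linear ratio over the background of the peak caller. This region had 39.8-fold in replicate 1, 31.8-fold in replicate 2 and 38.5-fold in replicate 3, averaging 36.7 ± 4.3 (SD, n = 3). It ranked 7 among 3537 shared regions by this mean, and 7, 17 and 7 within the lists of replicates 1, 2 and 3. The 3 summits lay within 6 bp of each other. A second strong region, 59.4 kb from the start (chr9:79631154-79631662), had 26.4, 23.3 and 17.3-fold in replicates 1, 2 and 3, averaging 22.3 ± 4.6. Every replicate value of the first region was above every value of the second.

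The other shared regions inside TLE4 were weaker. The region 38.6 kb from the start had 9.20, 11.8 and 7.36-fold in replicates 1, 2 and 3. Replicate 2 was the highest there and replicate 3 the lowest. The caller split this region into 2 summits in every replicate, and the strongest summits of the replicates spread over 346 bp. These values may therefore belong to different summits. At 79.7 kb the values were 8.02, 8.08 and 7.19-fold, and at 90.85 kb they were 6.22, 8.09 and 6.78-fold. These 3 regions overlap in their replicate ranges, and none reached the lowest value of the 2 strong ones. All 5 shared regions inside TLE4 lay within 52.9 kb, between 24.9% and 58.6% of the way along the gene, and no other shared region was found inside the gene. The annotation used here gives no exons, so exons and introns were not separated.

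**Figure D2:**
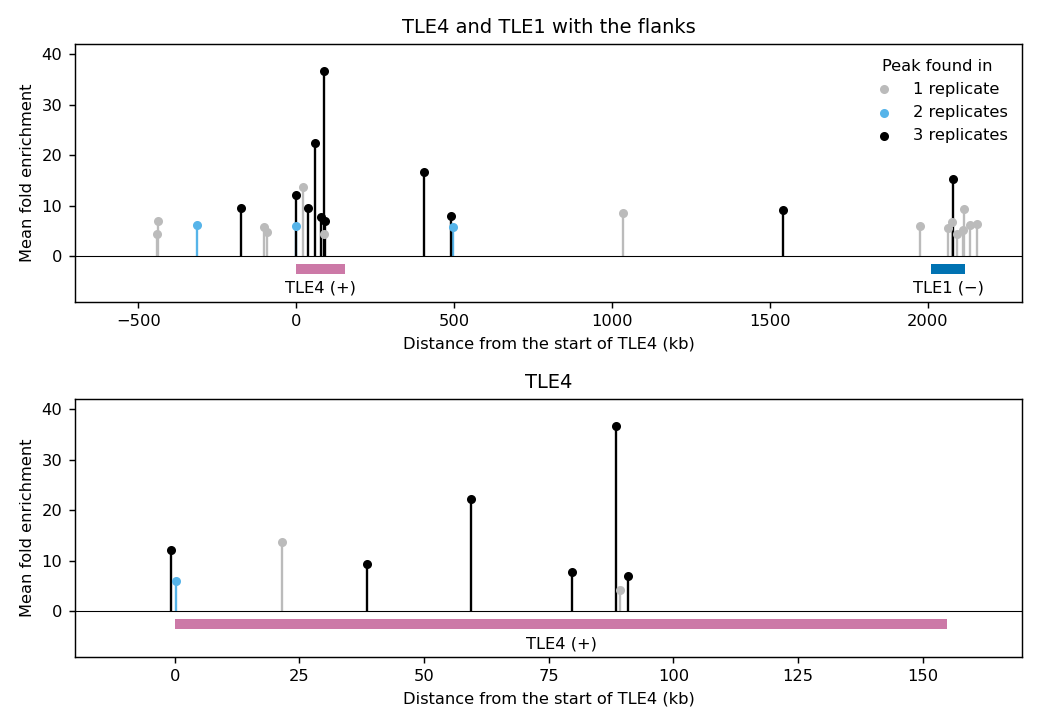
Mean fold enrichment (vertical axes, linear) of every GSX2 region at TLE4 and TLE1 by distance of its strongest summit from the start of TLE4 (horizontal axes, kb), with the gene spans as bars and the strand in brackets. Colour gives the number of replicates with a peak, and the lower panel enlarges TLE4. The tallest line, 36.7-fold at 88.6 kb, stands inside TLE4, and most regions near TLE1 were found in 1 replicate.

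A shared region also lay just before TLE4, with its summit 754 bp upstream of the first annotated start (chr9:79570988-79571368). Relative to its mean, its fold enrichment varied the most of the 14 shared TLE regions, 17.0 in replicate 1, 6.39 in replicate 2 and 12.8 in replicate 3 (mean 12.1 ± 5.4, SD, n = 3). Replicate 2 was the lowest by a wide margin, at a coefficient of variation of 44.3%. The neighbouring region (chr9:79571917-79572431) joins 2 peaks that overlap only at their edges. The peak of replicate 3, at 5.42-fold, covers the start and the paired cores shown above, and the peak of replicate 1, at 6.51-fold, lies wholly past that window. Replicate 2 had no peak there, so the cores were under a peak in 1 replicate only. Inside the gene, a peak 21.4 kb from the start reached 13.7-fold in replicate 3 and was not called in the other replicates. Among 8638 regions seen in 1 replicate it ranked 12 by fold enrichment.

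TLE4 is flanked by long stretches without protein-coding genes, 1242 kb toward PSAT1 and 1857 kb toward TLE1, and 3 of the shared regions lay far out in them. The region 404.6 kb from the TLE4 start, and 249.7 kb past its end, had 12.8, 14.7 and 22.2-fold in replicates 1, 2 and 3 (mean 16.6 ± 5.0, SD, n = 3). Its summit fell inside LINC01507, a long noncoding RNA gene. One further out, 490.0 kb from the start, had 8.40, 9.75 and 5.40-fold, and one 176.1 kb upstream had 10.2, 9.71 and 8.54-fold. Replicate 3 was the highest at the first of these 3 regions and the lowest at the other two. Assignment to TLE4 rests on distance alone at such positions. Counting only regions inside TLE4 or within 100 kb of it left 6 shared regions.

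TLE1, on the minus strand of the same arm, had 10 regions, of which 2 were shared and 8 were found in 1 replicate. The stronger shared region lay inside the gene, 38.7 kb from its start (chr9:81650603-81651599). It had 18.2, 10.4 and 17.2-fold in replicates 1, 2 and 3, averaging 15.3 ± 4.3 (SD, n = 3), with replicate 2 the lowest. It was the widest of the 14 shared TLE regions at 997 bp, and the caller split it into 2, 3 and 2 summits. The weaker one lay 470.8 kb beyond the end of the gene in the desert toward TLE4 and had 11.3, 6.71 and 9.08-fold. The 8 regions of 1 replicate ranged between 4.39 and 9.41-fold, the highest 1.80 kb inside the start in replicate 3.

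TLE3 held the second strongest region of the family, 1.97 kb upstream of its first annotated start on the minus strand of chromosome 15 (chr15:70099190-70100180). Its values were 22.0 in replicate 1, 17.8 in replicate 2 and 32.8-fold in replicate 3, averaging 24.2 ± 7.7 (SD, n = 3). Replicate 3 was the highest, and its value was above the lowest value of the strongest TLE4 region, so the ranges of these 2 regions overlap. The region ranked 73 among the 3537 shared ones. TLE3 also had 1 region of 2 replicates, 13.5 kb upstream with 8.24-fold in replicate 2 and 5.82-fold in replicate 3. Another 5 regions of 1 replicate lay between 3.52 kb upstream of the gene and 193.9 kb past its end.

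TLE2 and TLE6 each had a single region, and every replicate held it. At TLE2 the summit lay 424 bp inside the first of 2 annotated starts (chr19:3046995-3047475). The values were 19.2-fold in replicate 1, 15.8-fold in replicate 2 and 18.7-fold in replicate 3, averaging 17.9 ± 1.8 (SD, n = 3). The window at the other TLE2 start overlapped no region and lay 17464 bp from this one. At TLE6 the summit lay 6.81 kb inside the gene (chr19:2984006-2984365), with 15.1, 16.4 and 18.6-fold and a mean of 16.7 ± 1.8. The TLE2 value was the higher in replicates 1 and 3 and the lower in replicate 2, so the order of these genes was not resolved. TLE5, 5.28 kb from TLE2, was nearest to no peak. The lists hold only peaks with a q-value of 0.001 or less, so weaker binding there would not be seen.

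**Figure D3:**
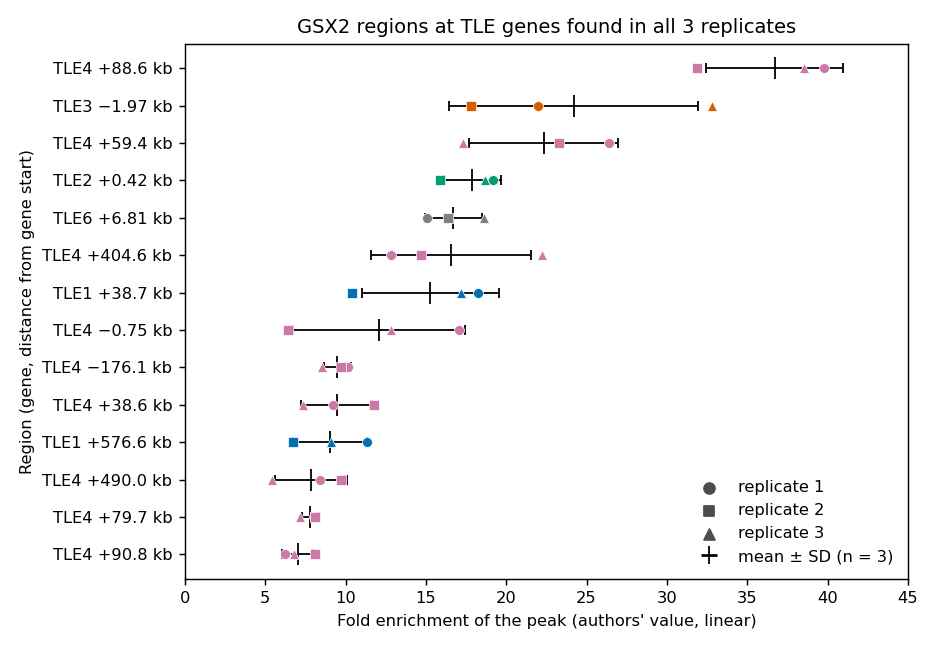
Fold enrichment (horizontal axis, linear, authors' value) in each replicate of the 14 TLE regions found in all 3, ordered by mean, with the mean and SD as bars and the distance from the gene start in each label. The region inside TLE4 at 88.6 kb lies between 31.8 and 39.8, and the ranges of all neighbours in the order overlap.

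By mean fold enrichment the 14 regions ran from 36.7 to 7.03, and each of the 13 pairs of neighbours in that order had overlapping replicate ranges. Only groups further apart separated, such as the 2 strongest TLE4 regions. The strongest region of each gene came in the order TLE4, TLE3, TLE2, TLE6 and TLE1. All 3 values of the TLE4 region were above all values of the TLE2, TLE6 and TLE1 regions.

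Close to annotated starts, 2 of the 6 members had a shared region within 1 kb, TLE4 and TLE2, against 1.52% of the 15811 protein-coding genes that have start windows in the table. TLE3 followed within 2 kb, which 2.18% of genes reached, and with 1.97 kb it lay just inside that limit. These limits were chosen after the values were seen. Shared regions inside the span were found at 4 of the 6 genes, TLE1, TLE2, TLE4 and TLE6, against 7.18% of all protein-coding genes.

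**Figure D4:**
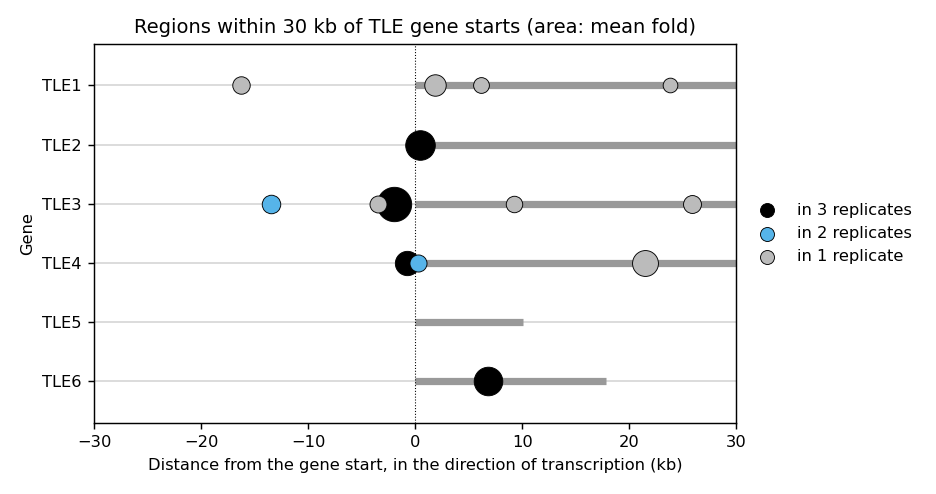
GSX2 regions within 30 kb of the start of each TLE gene (horizontal axis, kb in the direction of transcription; grey bars are gene spans up to 30 kb), with the circle area scaled to mean fold enrichment and the shade giving the number of replicates. Shared regions stand within 2 kb of the first annotated starts of TLE2, TLE3 and TLE4 and inside TLE6, and TLE5 has none.

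As a group, the shared TLE regions had a higher median fold enrichment than the other shared regions. It was 13.7 (quartiles 9.15 and 17.6, 14 regions), against 9.49 (7.73 and 12.1) for the 3523 others. Of the 14, 6 were in the top 10% of all shared regions and 3 exceeded 20-fold (21.4%), as did 149 of the others (4.23%). They were also wider, with a median of 537 bp against 391 bp, and spread between replicates was 22.0% against 19.5% as a median coefficient of variation. Summits of the replicates lay a median of 22 bp apart at TLE regions and 30 bp at the others. TLE4 holds 9 of the 14, and 5 of these averaged below 10-fold, so the family median in fold does not describe that gene. The strongest regions of TLE1, TLE2, TLE3 and TLE6 averaged between 15.3 and 24.2-fold. No test was made. Regions of 1 replicate were alike in level, with a median of 6.06-fold at TLE genes and 6.21-fold elsewhere. Replicate 2 gave the lowest value at 6 of the 14 regions, replicate 3 at 5 and replicate 1 at 3, and replicate 2 gave the highest at 4. The list of replicate 2 was the shortest, but its median fold enrichment was the highest, 7.73 against 7.15 in replicate 1 and 7.48 in replicate 3. The lists hold no read counts, so the part of depth in these differences was not tested.

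**Figure D5:**
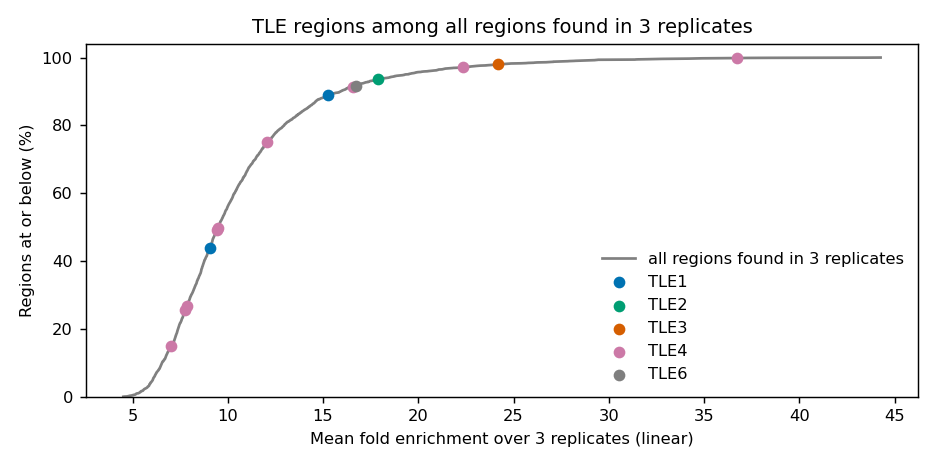
Cumulative share of all regions found in 3 replicates (vertical axis, %) by mean fold enrichment (horizontal axis, linear), with the 14 TLE regions as coloured points on the curve. TLE2, TLE3, TLE6 and the 3 strongest TLE4 regions lie in the top 10%, and the weakest TLE4 region, at 7.03-fold, ranks 3012 of 3537.

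Factors that recruit TLE proteins in at least 1 animal were listed with earlier results of these data known. The listed genes were the nearest over a median stretch of 127.9 kb, against 57.8 kb over all protein-coding genes. Of 32 listed, 15 had a shared region themselves (46.9%), against 12.5% of all protein-coding genes. The part of stretch length in this difference was not tested. The strongest shared regions were at the Wnt effector genes TCF7L2 (25.6, 21.7 and 36.5-fold in replicates 1, 2 and 3, inside the gene) and TCF7L1 (11.1, 19.5 and 13.2-fold, inside the gene). Next came the homeodomain genes NKX6-1 (mean 14.0 ± 1.9-fold, 84.1 kb away) and DBX1 (11.3 ± 3.2-fold, inside the gene), both of ventral and intermediate spinal cord progenitors. PRDM1, a zinc finger repressor gene, had 11.2 ± 1.8-fold inside the gene, and EN1, a homeodomain gene of the midbrain and hindbrain, had 11.1 ± 3.2-fold at 2.13 kb. The TCF7L2 region had a higher mean, 27.9 ± 7.7-fold, than any TLE region but the strongest. Its replicate range overlaps those of the TLE3 region, the 2 strongest TLE4 regions and the region 404.6 kb from the TLE4 start.

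Other corepressor genes had a shared region in 7 of 22 cases (31.8%), with a median stretch of 119.9 kb. RCOR3 and RCOR1, which encode CoREST scaffolds, had 14.1 ± 2.8-fold inside the gene and 13.4 ± 1.4-fold at 0.531 kb. BCOR, a BCL6 corepressor gene, had 13.0 ± 3.9-fold at 397.0 kb. The NCoR complex genes TBL1XR1, TBL1X and NCOR1 had 12.4 ± 1.8, 11.6 ± 3.1 and 11.1 ± 1.6-fold, all inside the gene. TBL1XR1 had 6 shared regions, the most in this list, against 9 at TLE4. By mean, none of these 7 strongest regions reached that of any of the 5 TLE genes, the lowest of which was 15.3-fold at TLE1. Single replicates overlap, since RCOR3 had 15.8, 10.9 and 15.6-fold in replicates 1, 2 and 3 and was above TLE1 in replicate 2. The ranges of TLE1 and TLE6 overlap that of RCOR3, so their order against it was not resolved. The lowest values at TLE4, TLE3 and TLE2 were 31.8, 17.8 and 15.85-fold. They were above the highest of the 7 corepressor regions, 15.75-fold at RCOR3 in replicate 1, at TLE2 by a small margin. The members of both lists, like the TLE genes, were chosen with earlier results of these data known, and no test of either list was made.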

How the data were processed

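Chromatin immunoprecipitation with an antibody against FLAG was sequenced in 3 replicates. Build hg38 and the tools Bowtie2, Trim Galore, MACS3, SAMtools and deepTools are named, per the submitters' processing notes. Settings and the use of input as a control are not given here. The authors deposited 1 peak list per replicate, with fold enrichment as a linear ratio and with −log10 q and −log10 p for significance. The score the authors deposited, 10 times −log10 q cut to whole numbers, stayed unused. No list went below a −log10 q of 3.0.

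Lines of 1 interval were reduced to the summit of highest fold enrichment, and intervals on chromosomes 1 to 22 and X were kept (77, 64 and 82 others were left out). Each was assigned to the nearest protein-coding span of a RefSeq table (GRCh38.p14), and intervals were merged over replicates by 1 bp overlap. A region is shared where all 3 replicates hold a peak. Its value is the mean and SD over replicates. Start sites and promoter sequence came from a RefSeq table covering 15811 genes. Replicates are numbered in the labels, which do not say whether they were separate cultures, so the spread may be partly technical. The lists give no counts, so depth is unknown. All 6 members are named, with the 6 strongest genes of each other list and the 4 genes most like TLE4. The members and lists were chosen with earlier results of these data known. Merging and assignment were tested on simulated data. Work was done in Python 3.11.15 with pandas 2.3.3.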

Additional observations from a re-analysis of the deposited data

How the results depend on the processing

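Across the alternatives tried (a stricter q-value, 50% overlap of the shorter peak, summits within 100 bp, the nearest gene of any type, regions within 100 kb, regions of at least 2 replicates, and each replicate left out), 5 of the 6 genes had a shared region under every setting. The strongest regions of TLE1, TLE2, TLE3, TLE4 and TLE6 kept the same means wherever all replicates were used. Those settings average the same deposited values again, so equal means there show only that the same peaks stayed together. Leaving 1 replicate out cannot move a mean of 3 by its SD, so a shift below the SD there shows nothing. Leaving 1 replicate out, or asking for at least 2 replicates, only loosens the rule, so neither could lower the number of genes. The 100 kb limit could not either, since each of the 5 genes had a shared region inside it or within 2 kb. At a minimum −log10 q of 10, 18 TLE regions remained in place of 38 and 8 shared ones in place of 14, with 4 at TLE4 and 1 at TLE1. The share of TLE regions that were shared was then 44.4%, against 27.6% of all regions. With the nearest gene of any type there were 23 TLE regions, since noncoding genes took the distal ones. TLE1 had 1 shared region, not 2, with that choice, with summits within 100 bp and within 100 kb. With summits within 100 bp, 12 TLE regions were shared in all, 8 of them at TLE4. Leaving out 1 replicate, which asks for 2 peaks in place of 3, gave 14 to 17 shared TLE regions, 9 to 12 at TLE4 and 2 at TLE1, means of 35.2 to 39.1-fold for the strongest TLE4 region and 13.8 to 17.7-fold for that of TLE1, and 27 to 36 TLE regions in all. The settings for all TLE regions, for the number of genes, for TLE2, TLE3 and TLE6 and for the other lists were added after the data were seen. No paired analysis was possible because the input libraries, which share replicate numbers with the precipitated ones, have no values here. Depth is unknown, so a peak missing from a replicate may reflect depth.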
